A study of Mus musculus with 4 samples.

Results

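The genes described here encode the translation initiation and elongation factors of the mouse cytosol, the proteins that bring ribosome, mRNA and aminoacyl-tRNA together. Members were all genes whose symbols start with Eif1 to Eif6 or with Eef1 or Eef2, without the Eif2ak kinases and the Eif4ebp binding proteins, and 60 of the 19074 listed genes met that rule. They were measured in pancreatic islets of C57BL/6 mice by single-cell RNA sequencing with the 10x Genomics 3′ assay, whose counting unit, the unique molecular identifier (UMI), stands for 1 captured RNA molecule. The study made 2 libraries labelled Sel1L knockout, from Sel1LIns1 mice, in which Cre recombinase is driven from the insulin gene Ins1 in beta cells, and 2 labelled wild type, from mice with floxed Sel1L alleles (Sel1Lf/f) and no Cre. SEL1L is the adaptor of the HRD1 ubiquitin ligase in endoplasmic reticulum (ER) associated degradation, and the series asks whether that pathway keeps beta cells in their mature state. A group with Cre and unfloxed Sel1L is not among the libraries, and what Cre does cannot be told apart from what the deletion does. For both genotypes the age is 7 weeks in the labels and 5 weeks in the text of the series, and all islets recovered overnight in culture before they were dissociated with trypsin. The labels do not say whether the libraries came from separate animals, so the p-values rest on the spread between libraries, and that spread may be technical.

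Initiation begins when eIF2, loaded with GTP and the initiator tRNA, joins the small ribosomal subunit together with eIF1, eIF1A, eIF3 and eIF5. The eIF4 factors bind the mRNA cap, unwind the leader and recruit that subunit, and eIF5B joins the large subunit. eEF1A then delivers each aminoacyl-tRNA, the eEF1B proteins recharge eEF1A with GTP, and eEF2 moves the ribosome by a codon. Beta cells make large amounts of proinsulin in the ER, and ER stress is known to slow their initiation through phosphorylation of the eIF2 alpha subunit by the kinase PERK.

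Cells were assigned by hormone content. Beta cells had at least 10% of their UMIs from Ins1 and Ins2, alpha cells had Gcg at 3% or more and delta cells Sst at 3% or more, with insulin under 5% in both. This gave 2491 and 1399 beta cells with the knockout label, against 3766 and 3707 with the wild type label. There were 772 and 334 knockout alpha cells, against 1126 and 949 in wild type, and 308 and 231 knockout delta cells, against 462 and 538 in wild type. The beta cell markers Iapp, Mafa, Nkx6-1, Pdx1, Slc2a2, Ucn3 and G6pc2 were read in the beta cell sums of every library. Each had fewer CPM of non-hormone UMIs in both knockout libraries than in either wild type library. Mafa had 64.0 and 83.7 CPM on that scale in knockout, against 751 and 699 CPM in wild type. All 6 alpha markers were read in the alpha sums, and the 4 delta markers in the delta sums. The whole beta list was also read in the alpha and delta sums, so being read does not tell the classes apart. Insulin took 40.6% and 44.4% of the UMIs of knockout beta cells, against 67.4% and 68.0% in wild type. The median knockout beta cell had 44119 and 51345 UMIs and 5458 and 5724 detected genes, against 46910 and 49861 UMIs and 4084 and 4144 genes in wild type. Median mitochondrial shares were 3.65% and 3.58% in knockout and 1.74% and 1.70% in wild type beta cells. Among markers of other cells, the summed macrophage list (5 of 5 genes read) had 68.8 and 79.0 CPM of non-hormone UMIs in knockout and 111 and 106 CPM in wild type beta cells, the acinar list lay at 0.20 CPM or less, and Ppy had 20925 and 13032 CPM in knockout, against 5659 and 5649 CPM in wild type. Sel1l itself had 31.2 and 33.1 scaled CPM in knockout beta cells, against 45.1 and 45.7 CPM in wild type. The 3′ reads may lie outside the deleted part, so this does not check the deletion. Libraries shared 1 to 9 cell barcodes.

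UMIs were summed over the cells of a class in each library and scaled by the trimmed mean of M values (TMM), which sets the typical gene to no change. Levels are therefore given as TMM-scaled CPM, with each total multiplied by its TMM factor, and they are not shares of the plain total. The members together were 0.833% and 0.780% of all UMIs in knockout beta cells, against 0.453% and 0.456% in wild type. Their TMM-scaled levels were 5982 and 5827 CPM in knockout, against 5994 and 6435 CPM in wild type. Log2 changes are knockout over wild type relative to the median gene. Per beta cell the members together held 390 and 418 UMIs in knockout libraries, against 217 and 238 in wild type. They were 1.665% and 1.616% of the UMIs outside the hormone genes in knockout beta cells, and 1.671% and 1.742% in wild type. In beta cells the higher count per cell thus went with the lower insulin share. The members' share of the rest of the transcriptome was slightly lower in both knockout libraries than in either wild type library. Alpha cells held 289 and 272 member UMIs per cell in knockout and 181 and 186 in wild type. Delta cells held 201 and 212 in knockout and 137 and 155 in wild type. Knockout cells of both classes also held more UMIs in total. The median alpha cell had 26061.5 and 26714 UMIs in knockout, against 17704 and 18848 in wild type. The median delta cell had 16504.5 and 18194 UMIs in knockout, against 11484.5 and 12545 in wild type. With each sum scaled by its number of cells the median gene lay 0.91, 0.79 and 0.69 log2 units higher in knockout beta, alpha and delta cells, so on that scale all 60 members lay above 0 in beta cells. Every "higher" and "lower" below is relative to the median gene, and each member called lower in beta cells had a log2 change above 0 per cell.

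In knockout beta cells 14 members were higher, 15 were lower and 31 were not called at an adjusted p under 0.05. Over all 15216 genes tested, 19.5% were called higher and 20.1% lower, so the members' 23.3% and 25.0% lay near the background. Among genes with at least as many UMIs as the members' 10th percentile, 22.6% were higher and 28.4% lower, against 20.4% and 27.8% of members at that depth. The median member changed by -0.046 on the log2 scale, against 0.0047 for all genes. The higher members included Eef1a1, Eef2, Eef2k and Eif4b and the lower ones Eif1, Eif2s1, Eif4e, Eif5a and Eif6. The split became 56 higher and 0 lower with scaling by total UMIs alone and 55 and 0 per cell. It was again 14 and 15 when totals were taken without the hormone genes. Of the 29 calls, 17 held with each library left out in turn. They comprised 7 higher members (Eef1akmt3, Eef1akmt4, Eef2, Eef2k, Eef2kmt, Eif2a and Eif4b) and 10 lower ones (Eif1, Eif1b, Eif1ax, Eif2s1, Eif2b3, Eif4e, Eif5a, Eif6, Eef1e1 and Eef1akmt1). Leaving out knockout replicate 1 kept 19 calls and leaving out knockout replicate 2 kept 18, and in either case 8 members were called higher and 11 lower. Ppy content and the mitochondrial share moved with genotype. The counts were 14 and 15 without cells at 3% Ppy or more. They were also 14 and 15 in cells with at least 1000 genes and under 5% mitochondrial UMIs. The share of all called genes that held with each library left out in turn was not counted, so the members' stability has no background here.

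**Figure D1:**
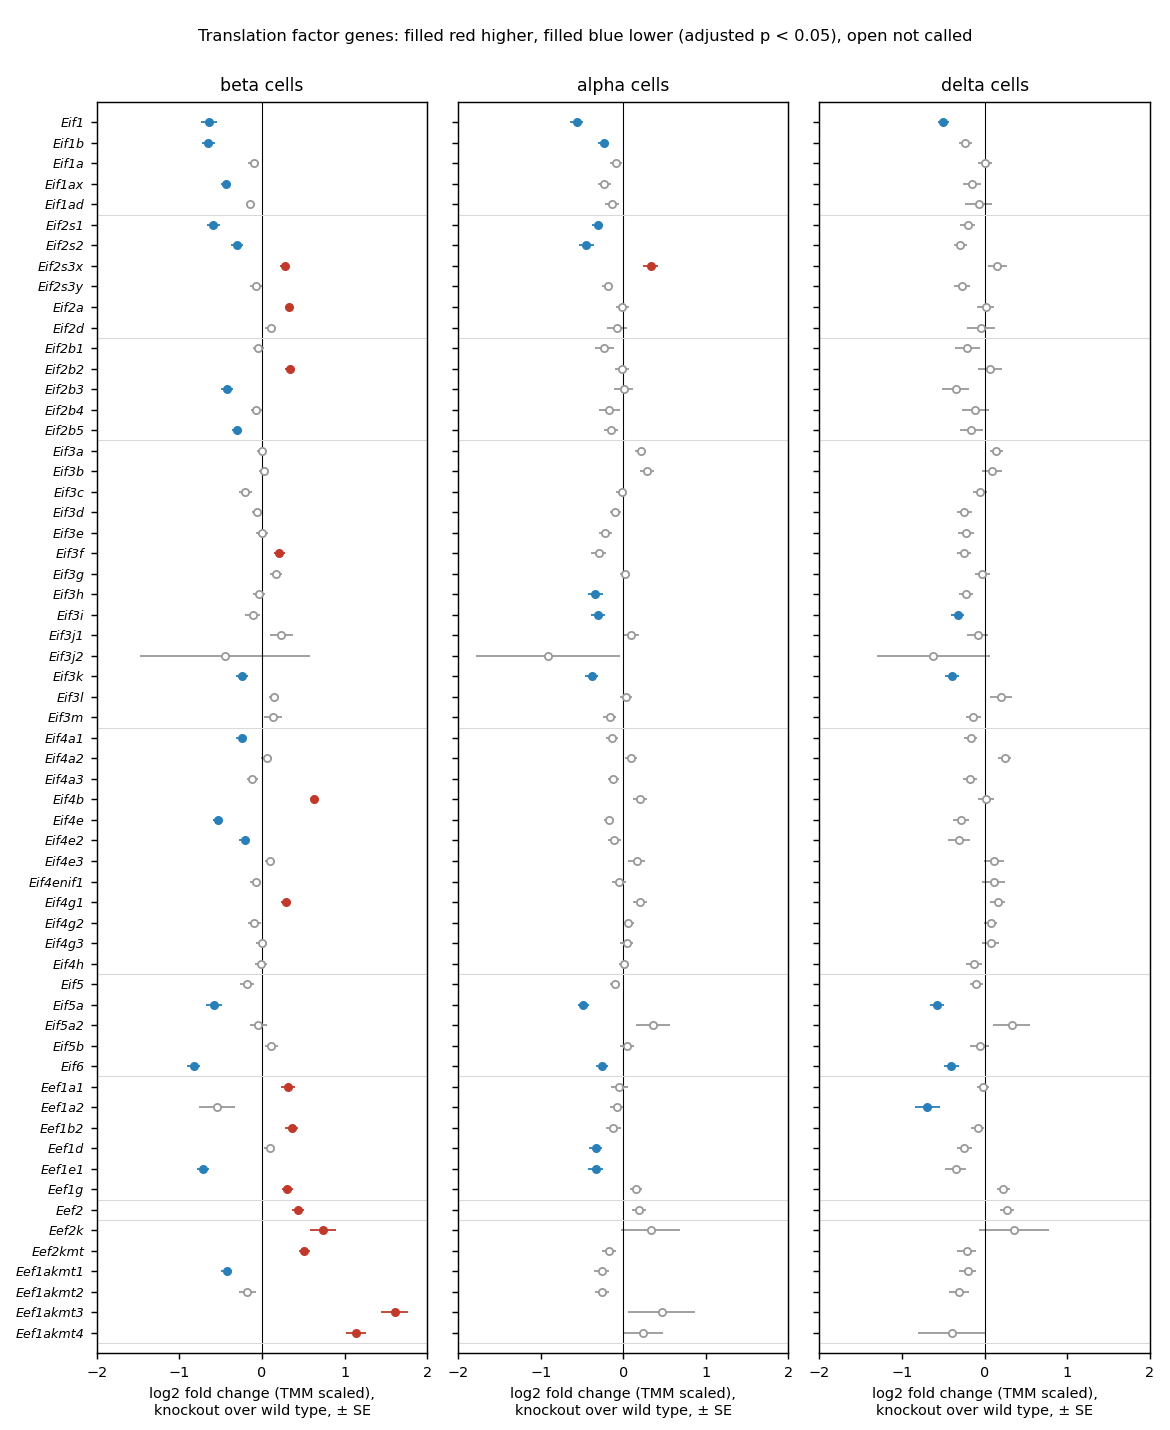
Log2 change of every member in beta, alpha and delta cells, knockout over wild type relative to the median gene, with its standard error from edgeR. Genes run by complex, red marks higher, blue lower and open circles members that were not called. Beta cells show 14 red and 15 blue points, and Eif1, Eif5a, Eif6 and Eif3k are blue in all 3 classes, while per cell all 60 beta changes lie above 0.

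Many elongation factor mRNAs begin with a terminal oligopyrimidine (TOP) tract, a C followed by a run of pyrimidines at the first transcribed bases, through which mTORC1 and LARP1 are known to control their translation. Of 12 members listed as TOP mRNAs (Eef1a1, Eef1b2, Eef1d, Eef1g, Eef2, Eif2s3x, Eif3a, Eif3e, Eif3f, Eif3h, Eif3l and Eif4b), 7 were higher and 0 lower in knockout beta cells, with a median log2 change of 0.24, beside 19.5% higher and 20.1% lower over all genes. With knockout replicate 1 left out 3 were higher, and with knockout replicate 2 left out 2, and Eef2 and Eif4b were the 2 that held with each library left out in turn. The median stayed between 0.23 and 0.26 over these leave-outs. Of the other 48 members 7 were higher and 15 lower, with a median of -0.10. In alpha cells 1 TOP member was higher and 2 were lower, beside 5.34% and 8.41% of all genes. In delta cells none was called, beside 2.46% higher and 4.23% lower over all genes. Per cell the median gene itself lies above 0, so the order of these medians, not their sign, is what carries over to that scale. The start sites of 8 members are shown because they set tracts beside starts without one. Each is 30 bases of RefSeq GRCm38.p6 on the transcribed strand, 20 before the annotated start and 10 from it on, and capitals mark a C followed by at least 4 C or T that begins within 10 bases of the start. Only this strand was searched.
Eef1a1: cgtgtgctggctccgCCCTCTTCCCgaggg
Eif3f: gctcttctgttctaggCTCTCTCTCTTTCT
Eif2s3x: ggcggctgccgagcattttCCTTTTCTCTC
Eif2s3y: cgacagcggaggccacagccaCTTCCTTCT
Eef1b2: cgacttggacctgcagttccgccggaagta
Eef2: cgacctataaaaggccgggcgttgacgtca
Eif1: gcagcgcgctggcgtcacaggggcggctat
Eif2s1: atgcgcgctgggttgggcgaagcgcacgct

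These windows lie at chr9:78481715-78481744 (minus strand) for Eef1a1, chr7:108934395-108934424 (plus) for Eif3f and chrX:94212642-94212671 (minus) for Eif2s3x. They lie at chrY:1010575-1010604 (plus) for Eif2s3y, chr1:63176811-63176840 (plus) for Eef1b2 and chr10:81176611-81176640 (plus) for Eef2. Eif1 was read at chr11:100319929-100319958 (plus) and Eif2s1 at chr12:78862052-78862081 (plus). RefSeq start sites were found for 47 members, of which 12 carried such a run (25.5%), against 32.6% of all 27025 genes. On the TOP list it was 5 of 8 (62.5%), as in 38 of 61 ribosomal protein genes (62.3%), and elsewhere among the members 7 of 39 (17.9%). Eef2 and Eef1b2 were higher in knockout beta cells without a run at their annotated start, and Eif2s3y had one and was not called. A match here is a string of letters at an annotated start, not a measured one.

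**Figure D2:**
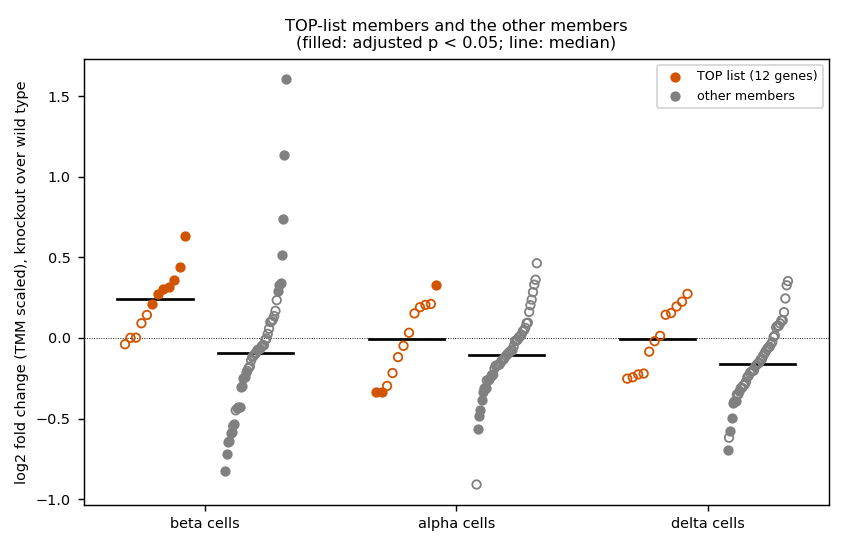
Log2 change of the 12 TOP-list members (orange) and of the other members (grey), knockout over wild type relative to the median gene, in beta, alpha and delta cells. Filled points were called and bars mark medians. The medians are 0.24 and -0.10 in beta cells, 7 TOP points are filled there above 0 and none below, and per cell all beta changes lie above 0.

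Of the 5 genes of eIF1 and eIF1A, which act in start-codon selection, 3 were lower and none was higher. Of all genes tested, 20.1% were lower and 19.5% higher, and at the members' depth 28.4% and 22.6%. Eif1, whose product keeps the scanning ribosome from settling on a wrong codon, had 1001 and 976 CPM in knockout beta cells, against 1446 and 1639 CPM in wild type. Its log2 change was -0.64 (SE 0.0975, adjusted p = 0.00313). Its close relative Eif1b had 57.6 and 53.6 CPM in knockout and 83.2 and 91.2 CPM in wild type, a log2 change of -0.65 (SE 0.0751, adjusted p = 0.00122). Both knockout libraries lay below both wild type libraries for either gene. Here and below, such a separation comes from the values behind the call and is no further support. The share of all genes so separated was not counted. Eif1ax, the X-linked gene of eIF1A, had 23.3 and 22.3 CPM in knockout and 30.2 and 31.4 CPM in wild type (log2 change -0.43, SE 0.0597, adjusted p = 0.00219). The other eIF1A gene, Eif1a, had 34.4 and 38.0 CPM in knockout and 39.1 and 38.4 CPM in wild type and was not called (adjusted p = 0.292), nor was Eif1ad. Summed over the 5 genes of this group, levels were 1135 and 1108 CPM in knockout and 1618 and 1820 CPM in wild type beta cells, most of it Eif1.

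Of the 5 members of the eIF5 and eIF6 group, Eif5a and Eif6 were lower and the others were not called. Of all genes tested, 20.1% were lower, and at the members' depth 28.4%. Eif6, whose product holds the large ribosomal subunit apart from the small one until it is ready, had 29.96 and 26.3 CPM in knockout beta cells, against 48.8 and 51.2 CPM in wild type (log2 change -0.83, SE 0.0789, adjusted p = 0.000636). No other called member had a lower log2 change. Eif5a, the hypusine-bearing factor that helps stalled ribosomes, had 156 and 141 CPM in knockout and 209 and 237 CPM in wild type (log2 change -0.58, SE 0.0925, adjusted p = 0.00367). The knockout values of both genes lay below all wild type values. Its relative Eif5a2 had 3.35 and 3.77 CPM in knockout and 3.65 and 3.68 CPM in wild type, and these values overlapped. Eif5, which triggers GTP hydrolysis on eIF2, had a log2 change of -0.19 (adjusted p = 0.123), and Eif5b one of 0.11 (adjusted p = 0.283).

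The 3 subunits of eIF2 did not move together. Eif2s1 encodes the alpha subunit that PERK phosphorylates, and it had 21.0 and 20.1 CPM in knockout beta cells, against 28.9 and 33.0 CPM in wild type (log2 change -0.59, SE 0.0782, adjusted p = 0.00192). The beta subunit gene Eif2s2 was lower as well, by a log2 change of -0.31 (adjusted p = 0.0151). The gamma subunit has an X-linked and a Y-linked gene, and both were read in all libraries. Eif2s3x had 23.2 and 23.7 CPM in knockout and 19.5 and 19.4 CPM in wild type, and it was higher (log2 change 0.27, SE 0.0548, adjusted p = 0.00888). Without knockout replicate 2 its adjusted p was 0.0708. Eif2s3y had 34.9 and 34.0 CPM in knockout and 34.5 and 37.9 CPM in wild type and was not called (adjusted p = 0.436). The Y-linked copy thus overlapped between the genotypes where the X-linked copy did not.

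Beside these subunits, Eif2a, which encodes an unrelated factor that can carry initiator tRNA without GTP, had 25.0 and 24.9 CPM in knockout beta cells, against 19.9 and 19.9 CPM in wild type (log2 change 0.33, SE 0.0543, adjusted p = 0.00439). Its exons overlap those of Serp1 on the other strand. Serp1, an ER stress protein gene, was higher by 0.86, and reads of such a pair can be told apart only if the counting used strand, which is not given in the sources used here. Eif2d was not called. The genes of eIF2B, the exchange factor that recharges eIF2 with GTP, were also split. Eif2b2 had 20.2 and 18.9 CPM in knockout and 15.0 and 15.9 CPM in wild type (log2 change 0.34, SE 0.0654, adjusted p = 0.00758). That call was lost without knockout replicate 1 (adjusted p = 0.0531). Eif2b3 and Eif2b5, which encode the catalytic gamma and epsilon subunits, were lower by log2 changes of -0.43 and -0.30. Eif2b1 and Eif2b4 had log2 changes of -0.046 and -0.069 and were not called.

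eIF3, the large scaffold on the small subunit, was the complex in which fewest genes were called for its size. Of its 14 genes 12 were not called, against 39.5% of all genes tested that were called in one direction or the other. Eif3f was higher by 0.21 (108 and 102 CPM in knockout, 91.0 and 90.5 CPM in wild type, adjusted p = 0.0441) and Eif3k lower by a log2 change of -0.24 (80.7 and 77.4 CPM in knockout, 89.5 and 97.4 CPM in wild type, adjusted p = 0.0354). Neither was called without knockout replicate 1, knockout replicate 2 or wild type replicate 2, with adjusted p of 0.270, 0.125 and 0.0553 for Eif3f and 0.136, 0.235 and 0.0615 for Eif3k. Summed over the complex, levels were 909 and 889 CPM in knockout and 882 and 944 CPM in wild type beta cells, and these ranges overlapped. Eif3a and Eif3e, with 103 and 102 CPM and 81.0 and 77.5 CPM in knockout and 102 and 104 CPM and 76.5 and 82.0 CPM in wild type, had log2 changes of 0.0017 and 0.00082.

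The eIF3j subunit has 2 near-identical genes, and their counts are uncertain. Eif3j2 had 0.702 and 9.32 CPM in knockout beta cells and 10.5 and 2.67 CPM in wild type, so replicates of a genotype differed by more than the genotypes. It made up 2.22% and 27.9% of the pair's UMIs in the knockout libraries and 33.2% and 9.38% in the wild type libraries. Alpha cells gave 1.81% and 25.5% in knockout and 28.7% and 9.85% in wild type, so the share followed the library and not the cell class. The pair's sum, 31.6 and 33.5 CPM in knockout and 31.6 and 28.4 CPM in wild type beta cells, varied far less, and neither gene was called.

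**Figure D3:**
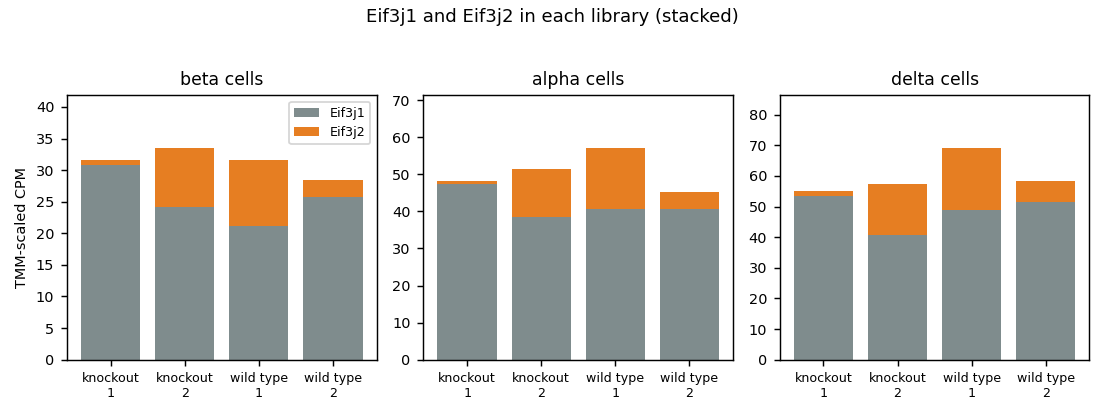
Stacked TMM-scaled CPM of Eif3j1 (grey) and Eif3j2 (orange) in each library for beta, alpha and delta cells. The orange part is small in knockout library 1 and wild type library 2 in all 3 classes, while the total bar in beta cells runs between 28.4 and 33.5 CPM.

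The eIF4 group, whose factors bind the cap and open the leader, had 12 genes (with the eIF4E transporter gene Eif4enif1). Of these, 2 were higher, 3 lower and 7 not called. Of all genes tested, 19.5% were higher and 20.1% lower, and at the members' depth 22.6% and 28.4%. Eif4b, whose product stimulates the helicase eIF4A, had 63.4 and 62.7 CPM in knockout beta cells, against 40.3 and 41.0 CPM in wild type. Its log2 change was 0.63 (SE 0.0579, adjusted p = 0.000568), the smallest adjusted p of all members. Eif4e, the cap-binding protein itself, had 39.8 and 38.8 CPM in knockout and 55.4 and 58.4 CPM in wild type (log2 change -0.53, SE 0.0616, adjusted p = 0.00121). For both genes the 2 libraries of a genotype lay close together and apart from the other genotype, in opposite directions. Eif4g1, the scaffold between cap and ribosome, had 77.1 and 75.9 CPM in knockout and 61.2 and 63.7 CPM in wild type and was higher by 0.29 (adjusted p = 0.0103). Eif4e2, an alternative cap-binding protein, was lower by a log2 change of -0.21 (adjusted p = 0.0454). The helicase genes differed in size of change. Eif4a1 had 118 and 114 CPM in knockout and 133 and 143 CPM in wild type (log2 change -0.25, SE 0.0705, adjusted p = 0.0318), and its adjusted p was 0.140 without knockout replicate 1 and 0.232 without knockout replicate 2. Eif4a2 had 122 and 118 CPM in knockout and 114 and 116 CPM in wild type and was not called (adjusted p = 0.512).

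Of the 7 elongation factor genes (the eEF1 genes and Eef2), 4 were higher, 1 was lower and 2 were not called, and of the higher ones Eef2 alone held with each library left out in turn. Over all genes 19.5% were higher and 20.1% lower. Eef2, the translocase, had 305 and 295 CPM in knockout beta cells, against 220 and 223 CPM in wild type (log2 change 0.44, SE 0.0699, adjusted p = 0.00374). Eef1a1, which encodes the main carrier of aminoacyl-tRNA, had 1448 and 1410 CPM in knockout and 1128 and 1166 CPM in wild type, a log2 change of 0.32 (SE 0.0847, adjusted p = 0.0254). Knockout values exceeded wild type values in all libraries for both genes. The Eef1a1 call was lost without knockout replicate 1 (adjusted p = 0.162) and without knockout replicate 2 (adjusted p = 0.135), with log2 changes of 0.31 and 0.34. Eef1b2, a nucleotide exchange factor for eEF1A, had 308 and 301 CPM in knockout and 225 and 251 CPM in wild type (log2 change 0.36, SE 0.0816, adjusted p = 0.0146), and its adjusted p was 0.0830 and 0.0737 without knockout replicate 1 and without knockout replicate 2. It overlaps Ndufs1 on the other strand, which was lower by a log2 change of -0.21. Eef1g, of the same complex, was higher by 0.31 (159 and 153 CPM in knockout, 122 and 129 CPM in wild type, adjusted p = 0.0139), with an adjusted p of 0.103 without knockout replicate 1 and 0.0683 without knockout replicate 2, while Eef1d, which overlaps the higher gene Naprt (1.41) on the same strand, overlapped between the genotypes. The eEF1 genes together had 2024 and 1968 CPM in knockout and 1578 and 1657 CPM in wild type beta cells.

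Eef1e1 was the lower member of this group. Its product sits in the complex of aminoacyl-tRNA synthetases, and it had 8.33 and 8.38 CPM in knockout beta cells, against 13.0 and 14.5 CPM in wild type (log2 change -0.72, SE 0.0743, adjusted p = 0.000838). Eef1a2, the form of eEF1A known from muscle and neurons, was near the floor of detection in beta cells. It had 0.911 and 0.628 CPM in knockout and 1.19 and 1.08 CPM in wild type, which is 0.0594 and 0.0450 UMIs per knockout cell and 0.0433 and 0.0399 per wild type cell, and it was not called (adjusted p = 0.0919).

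Of the 6 enzymes that modify elongation factors, 4 were higher in knockout beta cells, where 19.5% of all genes were, and 2 of these 4 overlap a higher gene on the other strand. Eef1akmt3, a lysine methyltransferase of eEF1A, had 10.2 and 11.9 CPM in knockout, against 3.04 and 4.24 CPM in wild type (log2 change 1.61, SE 0.159, adjusted p = 0.000722). It had the highest log2 change of all members. Its exons overlap those of Mettl1 on the opposite strand, and Mettl1 was higher by 0.52. Eef2kmt, which methylates eEF2, had 32.4 and 33.0 CPM in knockout and 21.97 and 23.9 CPM in wild type (log2 change 0.51, SE 0.0645, adjusted p = 0.00159). It overlaps Alg1 and Gm15983 on the other strand, and neither was called. Gm15983 had a log2 change of 2.70 (SE 0.915, adjusted p = 0.0559). Eef2k, the kinase that stops eEF2 by phosphorylation, had 4.99 and 4.60 CPM in knockout and 2.42 and 3.34 CPM in wild type (log2 change 0.74, SE 0.157, adjusted p = 0.0112). The kinase and its target were therefore both higher. Eef1akmt4 was higher by 1.14 at 2.92 and 3.10 CPM in knockout and 1.30 and 1.43 CPM in wild type. Its exons overlap those of Alg3 on the other strand, itself higher by 0.36. They also overlap those of Gm49333 on the same strand, which is not among the listed genes. Eef1akmt1 was lower by a log2 change of -0.43 and Eef1akmt2 was not called.

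**Figure D4:**
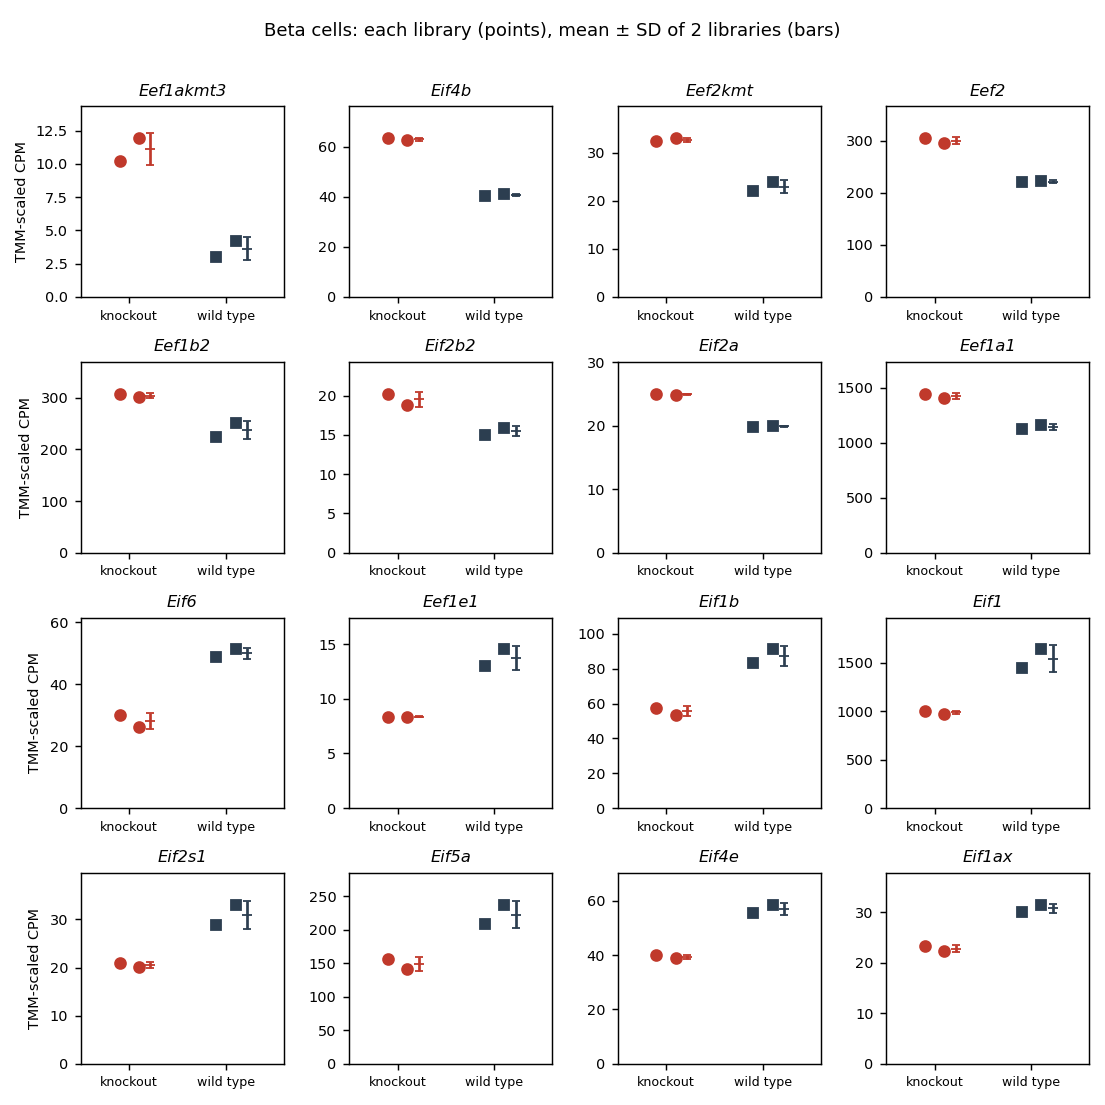
TMM-scaled CPM of the 8 higher and 8 lower members with the largest changes and at least 10 CPM, in beta cells. Points are single libraries, circles knockout and squares wild type, and bars give mean ± SD of 2 libraries. In all 16 panels the 2 knockout points lie to one side of both wild type points. The panels were chosen by calls and size of change in these same libraries, so this separation follows largely from the choice. Per cell the lower 8 also have log2 changes above 0.

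Because insulin content separates the genotypes, beta cells were also compared at like insulin shares. Knockout cells with 50% to 70% insulin numbered 449 and 382, and wild type cells 2247 and 2232. In that window 30 members were called, and 26 of the 29 calls made in all beta cells were made there in the same direction. The cells of the window are part of all beta cells, so the 2 sets of calls are not independent. The share of all genes called in the window was not counted. Eef1a2 was among those called in the window but not in all beta cells, with a log2 change of -1.62 (SE 0.371, adjusted p = 0.0109). This gene lay near the floor of detection in beta cells, and the part of its signal from other cells was not tested. Eif4b had 176 and 178 CPM of non-hormone UMIs in knockout cells with 10% to 30% insulin, against 83.9 and 102 CPM in wild type. With 50% to 70% insulin it had 173 and 167 CPM in knockout, against 112 and 113 CPM in wild type. Eif4b was thus above wild type at either insulin share. Eif1 behaved differently. At 10% to 30% insulin it had 2822 and 2802 CPM in knockout cells, against 2688 and 3206 CPM in wild type, and these values overlapped. At 50% to 70% it had 2787 and 2649 CPM in knockout, against 4021 and 4444 CPM in wild type. The wild type cells of the lowest bin were only 45 and 23.

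In knockout alpha cells 1 member was higher, 11 were lower and 48 were not called. Over 12944 genes tested 5.34% were called higher and 8.41% lower. Median mitochondrial shares were 3.72% and 3.75% in knockout and 2.48% and 2.47% in wild type alpha cells, and in cells with at least 1000 genes and under 5% mitochondrial UMIs 0 members were called higher and 7 lower. Among genes with at least as many UMIs as the members' 10th percentile, 7.53% were higher and 16.0% lower, beside 1.85% and 20.4% of members at that depth. Eif1 had 1127 and 1129 CPM in knockout alpha cells, against 1667 and 1673 CPM in wild type (log2 change -0.57, SE 0.0765, adjusted p = 0.00781). Eif5a had 329 and 343 CPM in knockout and 455 and 484 CPM in wild type (log2 change -0.48, SE 0.0709, adjusted p = 0.00979). Both separated the genotypes in all libraries, and they were the only 2 calls that held with every library left out in turn. Eif2s2 was lower by a log2 change of -0.45 (167 and 182 CPM in knockout, 258 and 217 CPM in wild type, adjusted p = 0.0180) and Eif3k by -0.38 (139 and 122 CPM in knockout, 166 and 176 CPM in wild type, adjusted p = 0.0183). Eif2s2 was not called without knockout replicate 1 (adjusted p = 0.103) or knockout replicate 2 (adjusted p = 0.0681), nor Eif3k without knockout replicate 2 (adjusted p = 0.0982). The other lower members were Eef1d, Eef1e1, Eif1b, Eif2s1, Eif3h, Eif3i and Eif6, with log2 changes of -0.34 to -0.24. Eif2s3x was the only higher member, with 27.6 and 31.0 CPM in knockout and 21.8 and 24.5 CPM in wild type (log2 change 0.33, adjusted p = 0.0490). DESeq2 did not call it (adjusted p = 0.134), and edgeR did not without knockout replicate 1, knockout replicate 2 or wild type replicate 1 (adjusted p = 0.0810, 0.194 and 0.201). Eef1a1, Eef1a2 and Eef2 were not called. With scaling by total UMIs alone the split was 15 higher and 2 lower, and per cell 59 and 0. Leaving out knockout replicate 2 kept 2 of the 12 calls, leaving out knockout replicate 1 kept 4, and without wild type replicate 1 or 2 the number kept was 7 or 6. Sel1l had 24.7 and 24.8 CPM in knockout alpha cells, against 19.1 and 21.1 CPM in wild type.

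In knockout delta cells 59 members were tested, since Eef1akmt3 was too low, and none was called higher and 6 were called lower. Over 11722 genes 2.46% were higher and 4.23% lower, and at the members' depth 3.79% and 7.69%. At an unadjusted p under 0.05 the members numbered 3 higher and 18 lower. All genes were not counted at that threshold, so the shares above are no background for these numbers. DESeq2 and limma-voom also called none higher. Eif5a had 302 and 286 CPM in knockout delta cells, against 415 and 461 CPM in wild type (log2 change -0.58, SE 0.0829, adjusted p = 0.00578). Eif1 had 2226 and 2220 CPM in knockout and 3030 and 3247 CPM in wild type (log2 change -0.50, SE 0.0710, adjusted p = 0.00578). Eef1a2 had 16.9 and 22.1 CPM in knockout and 31.2 and 31.4 CPM in wild type (log2 change -0.69, SE 0.148, adjusted p = 0.0250). Eif6 had 107 and 95.1 CPM in knockout and 130 and 139 CPM in wild type (log2 change -0.40, adjusted p = 0.0306). Eif3i and Eif3k were lower by log2 changes of -0.33 and -0.39. Eif1, Eif5a, Eif6 and Eif3k were thus called lower in all 3 classes relative to the median gene, though per cell Eif1, Eif5a and Eif6 lay above 0 in beta and delta cells. Most delta cells also held Ppy, the hormone of PP cells, at 3% or more of their UMIs: 238 and 175 in the knockout libraries and 361 and 376 in the wild type libraries. Without those cells 70 and 56 knockout and 101 and 162 wild type cells were left, and 1 member, Eif5a, was called lower (log2 change -0.60, adjusted p = 0.0280). Eif1 then had a log2 change of -0.44 (SE 0.0975, adjusted p = 0.0649), Eif6 of -0.35 (SE 0.135) and Eef1a2 of -0.41 (SE 0.315). With scaling by total UMIs alone the split was 3 higher and 3 lower, and per cell 48 and 0. Only Eif1 and Eif5a held with every library left out in turn. Eef1a2 was not called without knockout replicate 1, wild type replicate 1 or wild type replicate 2 (adjusted p = 0.0795, 0.0669 and 0.0942), nor Eif6 without knockout replicate 2, wild type replicate 1 or wild type replicate 2 (adjusted p = 0.119, 0.0529 and 0.135). Leaving out wild type replicate 2 left 2 of the 6 calls.

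Depth differs between the classes, so a call in beta cells and none elsewhere is no difference by itself, and the difference of the 2 effects was tested with the library as a block. Between beta and alpha cells 15 members had a higher and 5 a lower effect in beta cells, against 11.3% and 11.1% of all genes. Eef2kmt differed by 0.70 (SE 0.0832, adjusted p = 0.000124), since its change was 0.51 in beta cells and -0.17 in alpha cells. Eif3f differed by 0.52 (adjusted p = 0.000548), Eef1b2 by 0.50 (adjusted p = 0.00218) and Eef1d by 0.44 (adjusted p = 0.000720). The 3 last-named are TOP-list members, of which 8 of 12 had a higher and none a lower effect in beta than in alpha cells. Eif6 differed by -0.55 (SE 0.0822, adjusted p = 0.000625), Eif1b by -0.39, Eif4e by -0.34 and Eef1e1 by -0.37. The Eef1e1 difference was not called without knockout replicate 2 (adjusted p = 0.123) or wild type replicate 2 (adjusted p = 0.0542). For Eif1 and Eif5a the difference was -0.058 and -0.081 and not called (SE 0.0880 and 0.0799).

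Between beta and delta cells 12 members had a higher and 3 a lower effect in beta cells, against 8.56% and 7.86% of all genes. Eef2kmt differed by 0.74 (SE 0.116, adjusted p = 0.000595), Eif4b by 0.64 (adjusted p = 0.000162), Eif3f by 0.48 (adjusted p = 0.000259) and Eef1b2 by 0.46 (adjusted p = 0.000120). Eif6, Eif1b and Eif2s1 had lower effects in beta cells, by -0.41, -0.40 and -0.37, and the Eif2s1 difference was not called without wild type replicate 2 (adjusted p = 0.0934). Eif1 and Eif5a again did not differ detectably, with differences of -0.13 (SE 0.0579) and 0.0085 (SE 0.0596). Both tests share the beta cell sums. With scaling by total UMIs alone the splits were 55 higher and 0 lower against alpha and 59 and 0 against delta cells. Per cell they were 16 and 2 and 25 and 0, and the differences of Eif6, Eif1b and Eif2s1 from delta cells were then not called.

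The members also differ between the cell classes of wild type islets. The CPM given here come from all 12 sums scaled together. Calls, log2 differences and folds come from fits of the beta sums with the alpha or the delta sums, each scaled separately. Beta cells had 17 members above and 24 below alpha cells (31.3% and 29.4% of all genes), and 23 above and 13 below delta cells (28.6% and 23.1% of all genes). Eef1a2 was set apart from the rest: wild type beta cells had 1.71 and 1.54 CPM, against 112 and 125 CPM in wild type alpha cells, a log2 difference of -6.17. Wild type delta cells lay between with 22.8 and 23.0 CPM. Gcg was also read in beta cell sums: it was 0.595% and 0.379% of the alpha level in wild type, where Eef1a2 was 1.76% and 1.38% of its alpha level, both as shares of non-hormone UMIs. In the knockout libraries Gcg was 0.529% and 0.169% and Eef1a2 1.3% and 0.797% of the alpha level on that measure. How much of the Eef1a2 signal in beta cells comes from other cells was not tested. Eef1a1 had 1620 and 1664 CPM in wild type beta cells, against 2082 and 2066 CPM in alpha cells (log2 difference -0.33) and 1806 and 1761 CPM in delta cells, where the difference was not called. The methyltransferase gene Eef1akmt3 went the other way, with 4.37 and 6.05 CPM in wild type beta cells, against 0.841 and 1.53 CPM in alpha cells (4.45-fold) and 0.686 and 1.39 CPM in delta cells (5.01-fold). Eef2k was 4.25-fold higher in wild type beta than alpha cells and 2.01-fold higher than in delta cells. Knockout beta cells had still more of both: Eef1akmt3 reached 14.8 and 17.3 CPM and Eef2k 7.20 and 6.65 CPM.

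Other members told the classes apart by less. Eif1b was lower in wild type beta than alpha cells by a log2 difference of -1.06 and lower than in delta cells by -0.17. Eif4e3, a divergent cap-binding protein, had log2 differences of 0.46 from alpha and -0.71 from delta cells (16.8 and 16.7 CPM in beta cells, 12.1 and 12.2 CPM in alpha cells and 27.0 and 28.7 CPM in delta cells). Eef2 was 0.73 above delta cells and not called against alpha cells. Eif5a had 300 and 339 CPM in beta, 434 and 463 CPM in alpha and 303 and 337 CPM in delta cells. With scaling by total UMIs alone, of which insulin takes most in beta cells, 2 members were above and 55 below alpha cells and 1 above and 58 below delta cells. Per cell, 39 were above and 7 below alpha cells and 57 above and 1 below delta cells, and the calls common to all 3 scales were fewer. Against alpha cells these were Eef1akmt3 and Eef2k, higher in beta cells, and 7 lower members (Eef1a2, Eef1b2, Eef1g, Eif1b, Eif2s1, Eif4a1 and Eif4h). Against delta cells they were Eef1akmt3, higher, and Eef1a2, lower.

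**Figure D5:**
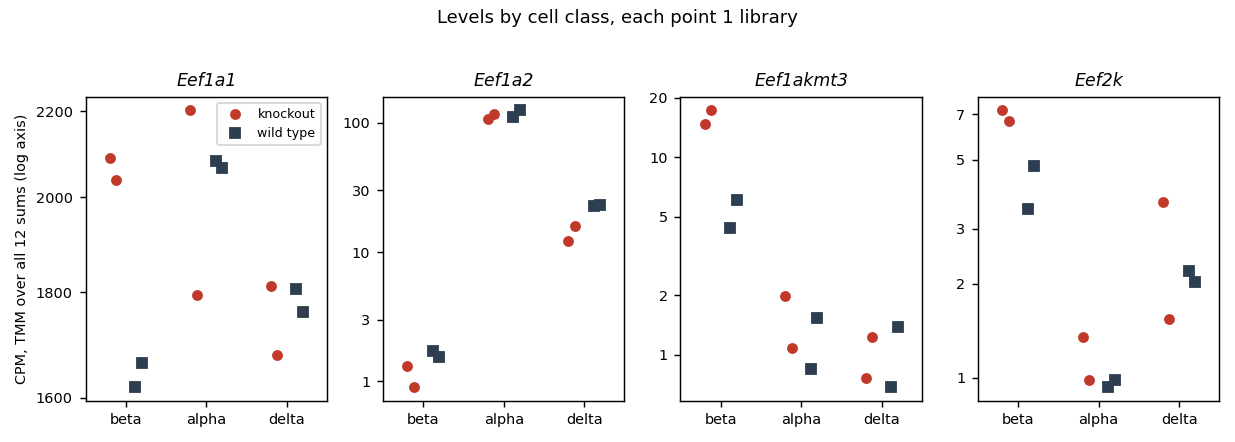
CPM of Eef1a1, Eef1a2, Eef1akmt3 and Eef2k in each library by cell class, scaled together over 12 sums on log axes that differ between panels. Circles are knockout and squares wild type libraries. Eef1a2 lies between 0.907 and 1.71 CPM in beta cells and between 107 and 125 CPM in alpha cells, and it stays lower in beta cells per cell and by total UMIs.

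Genes that control initiation were called in both directions. Of 23 regulators 6 were higher and 9 lower in knockout beta cells, beside 19.5% and 20.1% of all genes, with a median log2 change of -0.13. Eif2ak3, which encodes PERK, had 18.3 and 17.3 CPM in knockout, against 10.0 and 10.7 CPM in wild type (log2 change 0.79, adjusted p = 0.000439). Dnajc3, an inhibitor of eIF2 alpha kinases and an ER chaperone, had 250 and 247 CPM in knockout and 108 and 131 CPM in wild type (log2 change 1.06, adjusted p = 0.000622). Eif4ebp1, the repressor of eIF4E, had 69.4 and 66.1 CPM in knockout and 102 and 106 CPM in wild type (log2 change -0.62, adjusted p = 0.000866), so repressor and cap-binding protein were both lower. Rps6kb1, an S6 kinase whose targets include eIF4B, was higher by 0.43. Eif4ebp1 was lower in alpha cells too, by a log2 change of -1.45, with 14.0 and 13.5 CPM in knockout and 42.2 and 32.9 CPM in wild type, and in delta cells by -1.45, with 31.7 and 28.3 CPM in knockout and 77.0 and 87.5 CPM in wild type. In alpha cells 1 regulator was higher and 5 lower, beside 5.34% and 8.41% of all genes and 7.53% and 16.0% at the members' depth. In delta cells 1 was higher and 1 lower, beside 2.46% and 4.23% of all genes.

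Of 28 genes of termination, recycling, poly(A) binding and hypusine or diphthamide synthesis 2 were higher and 8 lower in knockout beta cells, with a median of -0.071, beside 19.5% and 20.1% of all genes and 22.6% and 28.4% of those at the members' depth. Denr, a recycling factor, had a log2 change of -0.59, the helicase gene Dhx29 one of -0.65 and Paip2b, an inhibitor of poly(A) binding protein, one of 0.64. Mcts2 changed by -1.80, but it is a copy of Mcts1 and the counts of such a pair are uncertain. In alpha cells 1 of this list was higher and 5 lower (5.34% and 8.41% of all genes), and in delta cells 1 and 0 (2.46% and 4.23%). The cytosolic aminoacyl-tRNA synthetases and their complex proteins, 22 genes, had 2 higher and 13 lower members in knockout beta cells, beside 19.5% and 20.1% of all genes, with a median log2 change of -0.24. Gars had 79.1 and 78.4 CPM in knockout and 118 and 120 CPM in wild type (log2 change -0.60, adjusted p = 0.000815). Tars, Mars and Vars changed by -0.54, -0.55 and -0.46. In alpha cells 0 were higher and 10 lower (5.34% and 8.41% of all genes) and in delta cells 0 and 6 (2.46% and 4.23%), with medians of -0.16 and -0.18, so in each class this list lay below the median gene. Per cell the median gene lies higher in knockout by 0.91, 0.79 and 0.69, more than the distance of any of these medians from 0.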

How the data were processed

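For each of 4 islet libraries, 2 per genotype, the authors deposited UMI counts of all listed genes in single cells. Per the submitters' processing notes, Cell Ranger 3.0.0, Seurat 2.3.4 and the mm10 build were used; whether counting used strand is not given in the sources used here. The deposited cells were already filtered, with at least 501 genes and at most 9.96% mitochondrial UMIs, and library totals were 99156230 to 228515309 UMIs, which limits counting error for all but the lowest genes.

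Counts were summed per hormone gate and library. The 10 cells that met both the alpha and the delta gate were left out, and no doublet caller was used. Genotypes were compared with edgeR 4.0.16 in R 4.3.3 (quasi-likelihood test, TMM, filterByExpr, Benjamini-Hochberg over all genes tested, threshold 0.05). Differences between classes were tested by an interaction term, with library blocks. Wild type levels between classes came from the same fit. Coordinates came from GENCODE vM21 (GRCm38) and start sites from RefSeq GRCm38.p6, where 47 members matched by symbol.

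Members, gene lists and alternatives were chosen with earlier results of these data known. The genes given in full are the called members with the largest changes and at least 10 CPM (up to 8 each way in beta, 4 in alpha and delta cells), up to 4 each way by smallest p between classes, a panel of 12, and up to 4 per other list by smallest p in beta cells. Other members named from a count were chosen after their values were seen. The scripts were tested on simulated data. Alternatives were other scalings, filters and cell choices, DESeq2 1.42.0, limma-voom (limma 3.58.1), each library left out and the replicate number as a block. Same-numbered libraries did not deviate together (correlations over genes -0.0022, -0.0986 and -0.0074 in beta, alpha and delta cells). Such a correlation sees only shared deviations, so it cannot tell whether same-numbered libraries were prepared together, and the labels do not say.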

Additional observations from a re-analysis of the deposited data

Results flagged for a closer look

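Several members had a genotype effect in beta cells that differed from the effect in alpha or delta cells by the test of the difference itself (log2, beta effect minus the other effect, relative to the median gene). Against alpha cells the difference was 0.70 for Eef2kmt, 0.52 for Eif3f, 0.44 for Eef1d and 0.50 for Eef1b2, and -0.55 for Eif6, -0.39 for Eif1b, -0.34 for Eif4e and -0.37 for Eef1e1. Against delta cells it was 0.46 for Eef1b2, 0.64 for Eif4b, 0.48 for Eif3f and 0.74 for Eef2kmt, and -0.40 for Eif1b, -0.41 for Eif6 and -0.37 for Eif2s1. The insulin share of UMIs (40.6% and 44.4% in knockout, 67.4% and 68.0% in wild type beta cells) and the mitochondrial share move with genotype more in beta than in the other cells, and their part in these differences was not tested.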

How the results depend on the processing

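Most results kept direction and side of the threshold under other filters, DESeq2, limma-voom and other cell choices, and the main dependence was on scaling, since TMM sets the median gene to 0. Members called higher and lower were 56 and 0 in beta, 15 and 2 in alpha and 3 and 3 in delta cells with library size only, and 55 and 0, 59 and 0, and 48 and 0 per cell. Differences between effects gave 55 and 0 (alpha) and 59 and 0 (delta) with library size only, and per cell 2 lower against alpha and 25 and 0 against delta. Wild type beta against alpha cells gave 2 and 55 with library size only and 39 and 7 per cell, and against delta cells 1 and 58, and 57 and 1. With hormone genes out and library size only the counts were 7 and 4 in alpha and 3 and 3 in delta cells. Alpha members called higher numbered 0 with RLE, DESeq2, limma-voom, the top 5% of cells by UMIs out or the stricter cell filter (there 7 lower), 2 with hormone genes out or a mean of at least 20 counts and 3 with no filter. Delta counts were 1 and 11 with no filter and 1 lower without Ppy-rich cells. Beta sums thinned to the delta depth, and so holding fewer counts, gave 9 lower. Leaving out each library gave 8 to 15 higher and 11 to 19 lower in beta, 0 to 1 and 2 to 7 in alpha, 0 and 2 to 4 in delta cells. It gave 7 to 13 and 3 to 7 for beta minus alpha, 8 to 9 and 2 to 3 for beta minus delta, 15 to 17 and 21 to 24 for beta over alpha and 18 to 23 and 6 to 12 for beta over delta. With the replicate number as a block the counts were 12 and 14 in beta, 2 and 12 in alpha and 0 and 5 in delta cells. The Ppy cell choice and the summing of Eif3j1 and Eif3j2 were added after seeing the data.

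Log2 changes that turned positive with library size only were, in beta cells, Eif6 0.073, Eef1e1 0.18, Eif1b 0.25, Eif1 0.26, Eif2s1 0.31, Eif5a 0.32, Eif4e 0.37, Eif1ax 0.47, Eif4a1 0.65, Eif2s3y 0.83, Eif5a2 0.85 and Eef1a2 0.35. In alpha cells they were Eif2s3y 0.032, Eif4e 0.051, Eif4a1 0.088, Eef1a1 0.17 and Eef1a2 0.15, and in delta cells Eef1a1 0.13. The differences against alpha became 0.12 for Eif6, 0.27 for Eif1b, 0.32 for Eif4e and 0.30 for Eef1e1, and against delta 0.34 for Eif1b, 0.33 for Eif6 and 0.37 for Eif2s1. Per cell the beta values were the same to 2 decimals except Eif5a2 0.86 and Eef1a2 0.34, with Eif6 at 0.070. In alpha cells they were Eif1 0.22, Eif5a 0.30, Eif2s2 0.34, Eif3k 0.40, Eif2s1 0.47, Eif2s3y 0.59, Eif4e 0.61, Eif4a1 0.65, Eef1a1 0.73 and Eef1a2 0.70. In delta cells they were Eif5a 0.10, Eif1 0.18, Eif6 0.27, Eif2s1 0.48, Eif2s3y 0.41, Eif4e 0.39, Eif4a1 0.51 and Eef1a1 0.66. With hormone genes out and library size only, Eef1a1 was 0.064 and Eef1a2 0.037 in alpha and Eef1a1 0.072 in delta cells. Changes near 0 also crossed it: Eif5a2 in beta cells was 0.029 at 50% to 70% insulin and 0.039 thinned, Eif4a2 -0.049 thinned, and Eef1a1 0.022 in delta cells without Ppy-rich cells. Over the leave-outs Eif5a2 ran between -0.12 (without knockout replicate 2) and 0.051 (without knockout replicate 1) in beta cells. Eef1a1 ran between -0.20 (without knockout replicate 1) and 0.092 (without knockout replicate 2) in alpha and between -0.093 and 0.020 in delta cells, without the same libraries. Eef1a2 in alpha cells ran between -0.15 (without wild type replicate 1) and 0.00066 (without wild type replicate 2), and Eef2k in delta cells between -0.45 (without knockout replicate 1) and 0.80 (without knockout replicate 2).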

Other observations

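Each library held 4 to 8 Xist UMIs and 4375 to 7536 Eif2s3y UMIs over beta, alpha and delta cells. Between the 2 replicates of a genotype the median absolute difference of a member was 0.0597 (knockout) and 0.0821 (wild type) log2 units in beta cells, and Eif3j2 by -3.73 (knockout) and 1.98 (wild type).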
